A study of Mus musculus with 8 samples.

Results

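The genes described here are 50 cell cycle genes, measured in microglia, the macrophages that live in the brain, of mice. They were chosen by name: an array probe belongs to a gene when the RefSeq accession that the array gives for it maps to one of the 50 symbols. That rule took 67 of the 55681 probes on the array. Of the 50 genes, 31 act in mitosis and 19 in DNA replication or at the step from G1 into S phase. For each gene the brightest probe was used, and 46 of the 50 were among the 19120 genes that could be tested.

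The RNA came from primary microglia of C57BL/6 mice and was hybridised to 8 Agilent arrays in 1 colour, with 4 treatments and 2 arrays per treatment. Cells were kept for 3 h with PBS or with 20 µg/ml of a recombinant protein. That protein was the Fc part of an antibody, Fc fused to residues 71 to 132 of Ecrg4, or Fc fused to residues 133 to 148 of Ecrg4. The Fc group is thus the control for the carrier that both Ecrg4 proteins share, and PBS is the untreated control. Sample titles put 1 array of each treatment in set 1 and 1 in set 2, so each set holds 4 arrays, 1 per treatment. Set 1 lay in column 1 of the slide and set 2 in column 2, so set and slide column cannot be told apart. In both columns PBS lay in row 1, Fc in row 2, Ecrg4(71-132) in row 3 and Ecrg4(133-148) in row 4. Treatment and slide row therefore cannot be told apart either, also where both sets show the same sign. Whether the sets are separate cultures or animals is not stated, so p-values measure only the spread between these samples, which may be technical. The labels do not give how the microglia were isolated or grown.

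Dividing cells turn on their cell cycle genes in waves. E2F factors drive the genes that license and copy DNA around the start of S phase, and a later programme, with FoxM1 and B-Myb, drives the genes that build the spindle and split the cell. In cells that leave the cycle, RB family proteins and CDK inhibitors hold both waves down. Microglia divide slowly in the healthy adult brain, and in culture their division depends on growth factors such as M-CSF and GM-CSF that other cells or the medium supply. RNA levels of these genes are used as a readout of how much of a population is dividing. In RNA from a whole culture, fewer dividing cells and less RNA per dividing cell cannot be told apart.

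The promoters of both waves are shown first because mitotic and replication genes held short elements in different shares. The CHR element (letters TTTGAA) and the CCAAT box (its own letters) are known from late, mitotic genes, and E2F elements from replication genes. E2F elements were searched as TTGGCGC or else TTCGCGC or else TTCCCGC or else TTGCCGC. RefSeq promoters, from 250 bases before to 50 bases after the start on the build GRCm38.p6, were found for 42 of the 50 genes, in 45 promoters. There was no entry for Aurkb, Ccna2, Ccne2, Foxm1, Gins2, Kif20a, Mcm4 and Tpx2. Both strands were searched for exact letters, and matches that overlap were each counted. The promoters printed are those of 3 mitotic genes (Cdc20, Plk1 and Top2a, among the largest differences below) and 3 replication genes (Mcm5 and Mcm6, which fell, and Cdt1, which was not called). They are examples and not the top of a ranking. Kif2c, with a CHR match but no CCAAT match, and Aurka differed more than Top2a, and Tk1, with no match, differed more than Mcm6. Each runs 5′ to 3′ on the gene's own strand with every match in capitals.
Cdc20: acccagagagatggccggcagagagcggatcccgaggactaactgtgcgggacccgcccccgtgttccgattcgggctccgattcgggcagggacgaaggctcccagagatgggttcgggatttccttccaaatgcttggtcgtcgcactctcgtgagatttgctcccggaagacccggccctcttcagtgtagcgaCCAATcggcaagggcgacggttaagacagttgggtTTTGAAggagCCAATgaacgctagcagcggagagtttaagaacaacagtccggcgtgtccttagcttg
Plk1: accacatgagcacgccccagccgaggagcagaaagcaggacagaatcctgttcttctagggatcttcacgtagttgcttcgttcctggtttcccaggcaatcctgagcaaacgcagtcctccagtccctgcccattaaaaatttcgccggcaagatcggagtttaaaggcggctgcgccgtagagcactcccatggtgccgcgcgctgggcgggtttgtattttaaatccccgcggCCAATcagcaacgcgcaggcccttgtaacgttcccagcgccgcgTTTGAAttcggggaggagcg
Top2a: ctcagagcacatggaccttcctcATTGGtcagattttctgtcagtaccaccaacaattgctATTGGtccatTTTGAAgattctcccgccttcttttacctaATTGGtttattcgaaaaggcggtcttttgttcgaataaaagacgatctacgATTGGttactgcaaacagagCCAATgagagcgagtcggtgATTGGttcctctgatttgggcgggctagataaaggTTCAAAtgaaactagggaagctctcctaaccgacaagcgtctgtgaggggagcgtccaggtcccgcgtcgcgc
Mcm5: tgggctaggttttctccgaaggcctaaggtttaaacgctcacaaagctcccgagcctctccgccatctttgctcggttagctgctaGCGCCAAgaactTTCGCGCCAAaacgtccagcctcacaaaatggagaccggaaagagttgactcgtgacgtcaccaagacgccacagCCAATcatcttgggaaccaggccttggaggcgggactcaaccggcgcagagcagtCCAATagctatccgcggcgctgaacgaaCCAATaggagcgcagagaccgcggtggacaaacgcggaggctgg
Mcm6: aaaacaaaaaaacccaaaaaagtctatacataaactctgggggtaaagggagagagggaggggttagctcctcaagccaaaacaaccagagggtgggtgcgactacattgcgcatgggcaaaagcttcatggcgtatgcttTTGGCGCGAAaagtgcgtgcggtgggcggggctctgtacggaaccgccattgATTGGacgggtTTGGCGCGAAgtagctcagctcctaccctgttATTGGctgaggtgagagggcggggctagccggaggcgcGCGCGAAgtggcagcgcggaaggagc
Cdt1: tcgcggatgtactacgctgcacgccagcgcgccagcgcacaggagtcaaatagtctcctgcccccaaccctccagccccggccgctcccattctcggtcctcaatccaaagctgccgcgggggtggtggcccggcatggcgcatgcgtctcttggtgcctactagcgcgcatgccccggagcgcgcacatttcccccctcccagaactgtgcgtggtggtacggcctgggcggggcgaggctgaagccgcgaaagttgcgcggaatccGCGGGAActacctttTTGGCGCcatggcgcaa

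These windows lie at chr4:118437294-118437593 (minus strand) for Cdc20, chr7:122159185-122159484 (plus) for Plk1, chr11:99024140-99024439 (minus) for Top2a, chr8:75109259-75109558 (plus) for Mcm5, chr1:128359656-128359955 (minus) for Mcm6 and chr8:122567765-122568064 (plus) for Cdt1. In Cdc20 the CHR match began at -18 from the start, between CCAAT matches at -53 and -8. In Plk1 a CCAAT match at -14 was followed by a CHR match at 31. Top2a held 6 CCAAT matches and 2 CHR matches. Mcm5 held 3 E2F matches, at -164, -152 and -149, with 3 CCAAT matches. Mcm6 held 5 E2F matches and 2 CCAAT matches, and Cdt1 held 2 E2F matches, at 19 and 34, and no CCAAT or CHR match.

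Over all members with a promoter, the CHR letters were in 19 of 27 promoters of mitotic genes (70.4%) and in 2 of 18 promoters of replication and G1/S genes (11.1%). They were in 17.9% of all 32851 promoters in the table. E2F letters showed the opposite split, with 3 of 27 mitotic promoters (11.1%), 12 of 18 replication and G1/S promoters (66.7%) and 9.57% of all promoters. CCAAT was common in both groups, at 70.4% and 66.7%, against 37.4% of all promoters. CHR and CCAAT stood together in 16 of the 27 mitotic promoters (59.3%) and in 6.95% of all promoters. A match is a description of the letters and not a measured binding site. No match to any of these letters was in the window of 5 mitotic genes (Birc5, Mad2l1, Melk, Nuf2 and Nusap1) and of 4 replication and G1/S genes (Tyms, Tk1, Ccne1 and E2f1).

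The arrays detected 25833 to 29474 probes well above background in set 1 and 24243 to 26028 in set 2. No spot was saturated. The 75th percentile of spot signal lay at 626 to 809 intensity units in set 1 and at 495 to 612 in set 2, so set 2 arrays were dimmer. Levels below are log2 intensities with the array's own 75th percentile at 0. On this scale the lowest level well above background was -5.14 to -4.40 in set 1 and -4.13 to -3.72 in set 2. A dim gene therefore passed as well above background less easily in set 2. A probe's level is not set against another probe's. A gene is called when limma's adjusted p is under 0.05. All 46 tested members were well above background on all 8 arrays. Of the other 4, Aurkb and Ttk were well above background on the 4 set 1 arrays and on 0 set 2 arrays, Cenpf on 3 set 1 arrays and 0 set 2 arrays, and Ccne2 on 0 arrays. Of the 50 genes, 37 had 1 probe on the array and 13 had 2 or 3.

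The first comparison asks whether the 2 sets differed in their cell cycle genes. They did: 43 of the 46 tested members were lower in set 2 and 0 were higher. Over all 19120 genes, 59.3% were called, 36.4% higher and 22.8% lower in set 2. The median difference of the members was -1.62 (set 2 minus set 1, log2), against 0.11 for all genes tested. The mitotic genes had a median of -1.74, with 27 of 28 called lower. The replication and G1/S genes had a median of -1.29, with 16 of 18 called lower. The 3 members that did not pass were Bub1b, Cdt1 and Tyms. With each array scaled to its median instead, the share of calls over all genes that were higher in set 2 went from 61.5% to 48.5%, and 44 members were called, each of them lower. Relative to the median of all genes the members stood at -1.73 under both scalings. Each scaling takes a constant off a whole array, so this relative value could not change.

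The sets did not overlap for the same number of members: in 43 of 46 each set 2 array was below each set 1 array, and in 0 of 46 above. Over all genes, 21.3% were below without overlap and 34.2% above. The difference held within each treatment. The members' median set difference was -1.54 in PBS, -1.51 in Fc, -1.73 in Ecrg4(71-132) and -1.70 in Ecrg4(133-148). Against it stood medians over all genes of 0.14, 0.10, 0.10 and 0.08 in the same order.

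**Figure D1:**
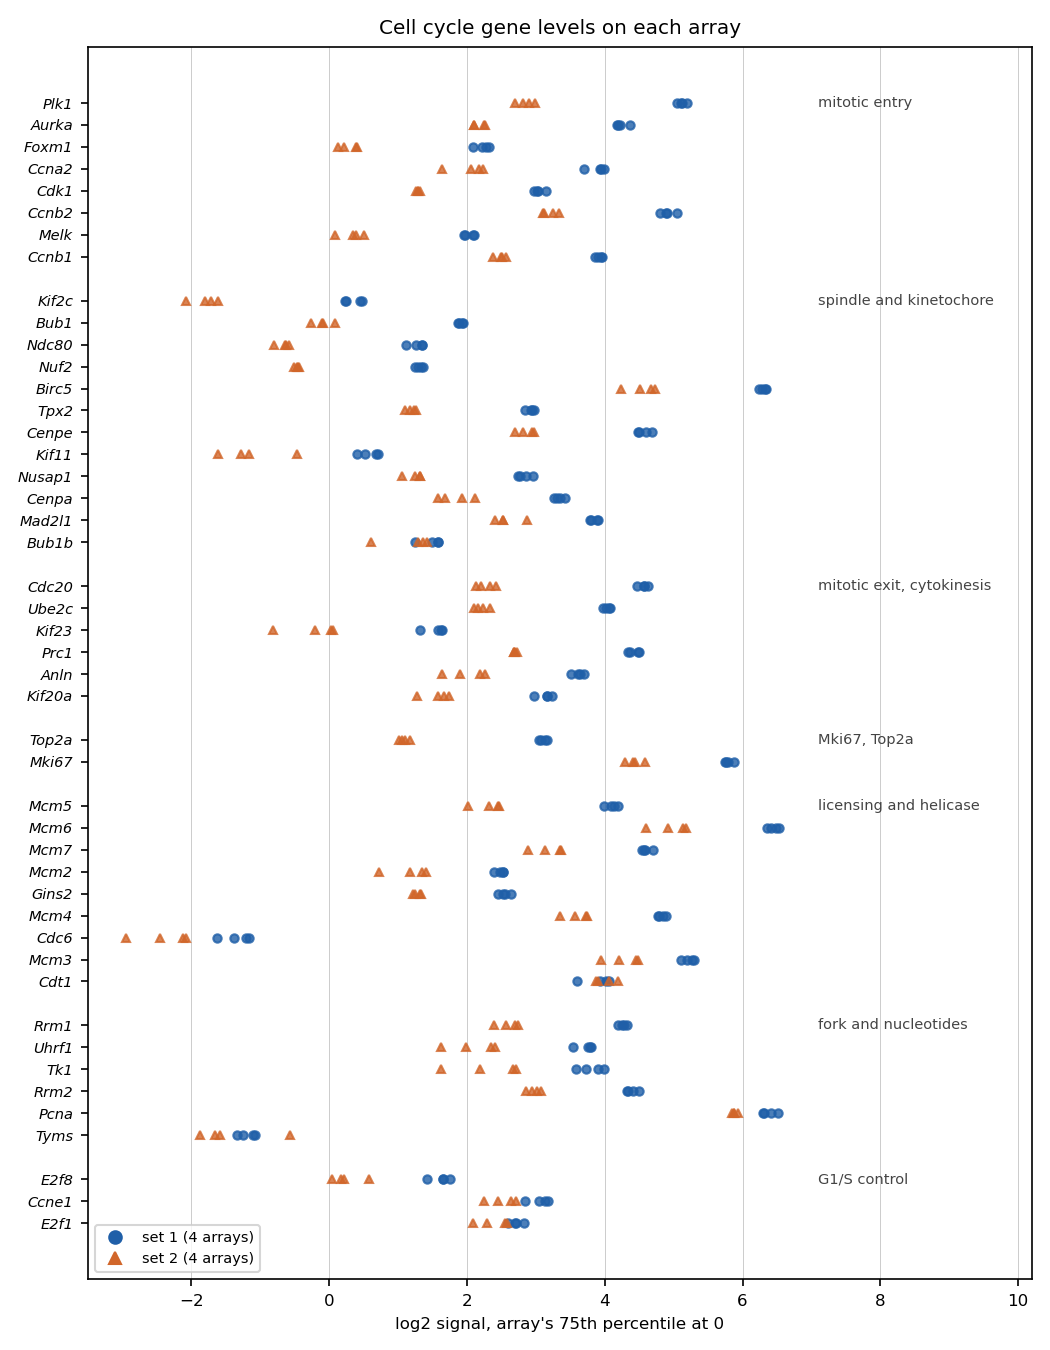
Log2 signal (x axis, the array's 75th percentile at 0) of the 46 tested cell cycle genes (rows, grouped by role) on each of 4 set 1 arrays (blue circles) and 4 set 2 arrays (orange triangles). For 43 genes the orange points lie left of all blue points; they overlap for Bub1b, Cdt1 and Tyms. Positions of different genes on the x axis are not comparable, since each is read by its own probe.

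Genes of mitotic entry fell together: 8 of 8 were called, with a median of -1.81. In the values that follow, the 4 arrays of a set are in the order PBS, Fc, Ecrg4(71-132), Ecrg4(133-148), and a difference is given with its SE. Plk1, the kinase that matures centrosomes and drives entry into mitosis, read 5.10, 5.20, 5.04 and 5.12 in set 1 and 2.91, 2.99, 2.70 and 2.82 in set 2. Its set difference was -2.27 ± 0.05, or 4.81-fold lower (limma, adjusted p = 7.38e-05). The 4 arrays of a set lay close together and far from the other set. Cdk1, the kinase that starts mitosis, read 2.97, 3.01, 3.03 and 3.15 in set 1 and 1.29, 1.32, 1.29 and 1.27 in set 2, a difference of -1.75 ± 0.06 (adjusted p = 0.000111). A second, dim probe for Cdk1 gave -0.78, the widest gap between probes of 1 gene among the 12 members with several tested probes. It was well above background on 5 of 8 arrays, and on the set 2 Ecrg4(71-132) array it read -2.98, above its set 1 values of -3.98 to -3.72. The other 3 set 2 arrays lay below those values, the lowest at -5.51. In all 12 members, each tested probe had a lower mean in set 2.

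The cyclins that activate Cdk1 were lower as well. Ccnb1 (cyclin B1) read 3.86, 3.97, 3.91 and 3.95 in set 1 and 2.56, 2.52, 2.38 and 2.49 in set 2, a difference of -1.43 ± 0.06 (adjusted p = 0.000155). Ccna2 (cyclin A2), which acts in S phase and G2, read 3.95, 3.99, 3.70 and 3.94 in set 1 and 2.18, 2.24, 1.63 and 2.05 in set 2, a difference of -1.87 ± 0.07 (adjusted p = 0.00015). Its lowest array in either set was the Ecrg4(71-132) array. Foxm1, a transcription factor of the mitotic wave, read 2.21, 2.32, 2.09 and 2.29 in set 1 and 0.39, 0.41, 0.12 and 0.21 in set 2, a difference of -1.94 ± 0.06 (adjusted p = 9.86e-05). In these 3 genes as well the sets were apart by more than the arrays within a set. Aurka, the kinase of the spindle poles, fell by 2.06 on the log2 scale, Ccnb2 (cyclin B2) by 1.71 and Melk by 1.70.

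Spindle and kinetochore genes followed the same pattern, with 11 of 12 called and a median of -1.72. Ndc80, the part of the kinetochore that grips microtubules, read 1.26, 1.36, 1.12 and 1.34 in set 1 and -0.64, -0.58, -0.80 and -0.62 in set 2. It differed by -1.93 ± 0.04 (3.81-fold, adjusted p = 7.38e-05). Birc5 (survivin), a subunit of the chromosomal passenger complex, read 6.29, 6.34, 6.24 and 6.32 in set 1 and 4.67, 4.73, 4.23 and 4.51 in set 2, a difference of -1.76 ± 0.09 (adjusted p = 0.000249). Here the sets were fully apart, with the Ecrg4(71-132) array lowest in both. Cenpe, a kinesin of the kinetochore, read 4.50, 4.69, 4.49 and 4.60 in set 1 and 2.94, 2.97, 2.70 and 2.82 in set 2, a difference of -1.71 ± 0.06 (adjusted p = 0.000123). Kif11, the motor that pushes spindle poles apart, read 0.69, 0.71, 0.40 and 0.52 in set 1 and -1.17, -1.27, -1.61 and -0.46 in set 2, a difference of -1.71 ± 0.20 (adjusted p = 0.00241). Its set 2 arrays were the widest spread among the 12 tested genes of the list, with Ecrg4(133-148) high and Ecrg4(71-132) low, yet all lay under set 1. The others called in this list, Kif2c, Bub1, Nuf2, Tpx2, Nusap1, Cenpa and Mad2l1, fell by 2.15 to 1.26.

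Bub1b had the smallest value of the list. It encodes BubR1, which together with Bub1 and Mad2 holds anaphase back until chromosomes are attached. It read 1.58, 1.58, 1.25 and 1.49 in set 1 and 1.42, 1.36, 0.61 and 1.29 in set 2, a difference of -0.30 ± 0.10 that missed the threshold (limma, adjusted p = 0.0531, 95% interval -0.57 to -0.04). The sets overlapped, and the set 2 Ecrg4(71-132) array was lower than the other 7. Of its partners in the checkpoint, Bub1 fell with a 95% interval of -2.16 to -1.84 (adjusted p = 0.000105). Mad2l1 read 3.80, 3.89, 3.78 and 3.91 in set 1 and 2.41, 2.53, 2.87 and 2.52 in set 2, a difference of -1.26 ± 0.10 (adjusted p = 0.000846), without overlap. Whether the difference of Bub1b itself differs from that of its partners was not tested. Without either Ecrg4(71-132) array, Bub1b differed by -0.19 and was called (adjusted p = 0.0327).

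The spindle list also held the 3 genes that were not well above background in set 2. For these the fold is a bound, the set 1 mean against the higher of the probe's own signal and the lowest signal well above background on each set 2 array. Ttk (Mps1), a checkpoint kinase, read -1.61, -1.59, -1.94 and -1.52 in set 1 and -3.94, -4.21, -4.08 and -3.82 in set 2, and was at least 4.67-fold lower in set 2. Aurkb, the kinase of the passenger complex, read -3.43, -3.21, -2.27 and -3.16 in set 1 and -4.71, -5.05, -6.07 and -5.35 in set 2, and was at least 1.92-fold lower. Cenpf read -3.89, -3.63, -4.32 and -3.94 in set 1 and -4.57, -5.51, -5.44 and -5.87 in set 2, which gives a bound of only 1.01-fold.

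Genes of mitotic exit and cytokinesis were all called lower, 6 of 6, with a median of -1.75. Cdc20, which activates the anaphase promoting complex, read 4.57, 4.63, 4.47 and 4.57 in set 1 and 2.34, 2.42, 2.13 and 2.20 in set 2. Its difference of -2.29 ± 0.05 (4.88-fold, limma adjusted p = 7.38e-05) was the largest of the 46. Ube2c, the ubiquitin-conjugating enzyme of the same complex, read 3.98, 4.02, 4.07 and 4.07 in set 1 and 2.10, 2.24, 2.34 and 2.16 in set 2, a difference of -1.83 ± 0.05 (adjusted p = 9.37e-05). In both, no set 2 array came near set 1. Kif23, Prc1, Anln and Kif20a, which build the midzone and the cleavage furrow, fell by 1.78, 1.72, 1.61 and 1.57.

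Both general proliferation markers were lower in set 2. Mki67, the gene of the Ki-67 antigen, read 5.76, 5.88, 5.74 and 5.80 in set 1 and 4.30, 4.40, 4.58 and 4.44 in set 2, a difference of -1.36 ± 0.07 (2.57-fold, adjusted p = 0.000293). Top2a, the topoisomerase that untangles chromosomes before division, read 3.08, 3.13, 3.05 and 3.16 in set 1 and 1.07, 1.17, 1.11 and 1.01 in set 2, a difference of -2.02 ± 0.05 (4.04-fold, adjusted p = 9e-05). Within a set the 4 treatments differed by 0.29 or less in either gene. Both stayed well above background on every set 2 array.

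**Figure D2:**
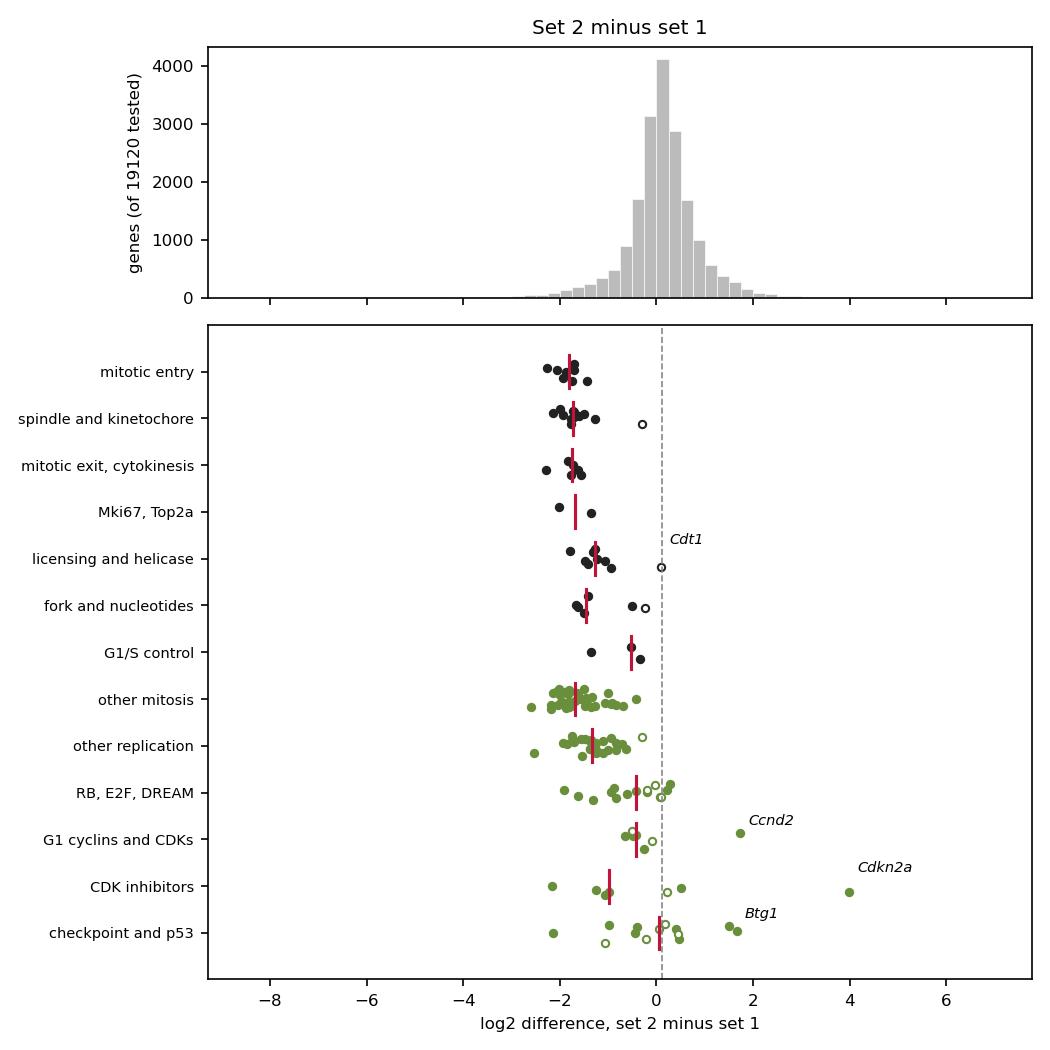
Upper panel: number of genes (of 19120 tested) by log2 difference, set 2 minus set 1. Lower panel: the same difference for each tested cell cycle gene by list, 7 lists of members (black) and 6 of other cell cycle genes (green), filled where limma's adjusted p was under 0.05 and open where not, with each list's median (red bar) and the median of all genes at 0.11 (dashed line). Mitotic lists centre near -1.7 and G1/S control at -0.53, while Cdkn2a lies at 3.99.

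Genes that load and activate the replicative helicase were lower in set 2 for 8 of 9, with a median of -1.26. The helicase is a ring of Mcm2 to Mcm7. Mcm5 read 4.09, 4.19, 3.99 and 4.14 in set 1 and 2.45, 2.46, 2.02 and 2.32 in set 2, a difference of -1.79 ± 0.07 (3.46-fold, adjusted p = 0.000155). Mcm6 read 6.35, 6.53, 6.41 and 6.48 in set 1 and 5.13, 5.18, 4.60 and 4.93 in set 2, a difference of -1.49 ± 0.11 (adjusted p = 0.000706). Mcm2 read 2.49, 2.53, 2.39 and 2.53 in set 1 and 1.41, 1.35, 0.72 and 1.17 in set 2, a difference of -1.32 ± 0.11 (adjusted p = 0.000946). In each of these 3 subunits the sets were apart, and the set 2 Ecrg4(71-132) array was the lowest of all 8. Mcm7, Mcm4 and Mcm3 fell by 1.41, 1.22 and 0.95, so the 6 subunits of 1 complex ranged from -1.79 to -0.95. Gins2, part of the active helicase, fell by 1.26.

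The helicase is loaded by Cdc6 and Cdt1, of which 1 was called. Cdc6 read -1.20, -1.37, -1.62 and -1.16 in set 1 and -2.08, -2.12, -2.94 and -2.45 in set 2, a difference of -1.06 ± 0.12 (adjusted p = 0.00231), with no overlap between the sets. Cdt1 read 4.02, 3.93, 3.60 and 4.07 in set 1 and 4.19, 4.06, 3.90 and 3.87 in set 2, a difference of 0.10 ± 0.10 (limma, adjusted p = 0.4, 95% interval -0.15 to 0.35). Its sets overlapped, and its sign turned to -0.017 when arrays were scaled to their median. That interval does not reach the values of the Mcm genes, although the difference between them was not tested.

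At the fork and in nucleotide supply, 5 of 6 genes were lower, with a median of -1.46. Rrm2, the regulated subunit of ribonucleotide reductase, read 4.32, 4.41, 4.34 and 4.50 in set 1 and 2.85, 3.08, 2.95 and 3.02 in set 2, a difference of -1.42 ± 0.05 (adjusted p = 0.000126). Rrm1, its partner subunit, fell by 1.66. Uhrf1, which carries DNA methylation over to new strands, read 3.80, 3.78, 3.54 and 3.76 in set 1 and 2.35, 2.41, 1.62 and 1.99 in set 2, a difference of -1.63 ± 0.11 (adjusted p = 0.000545). Tk1, the thymidine kinase of S phase, read 3.91, 3.99, 3.58 and 3.73 in set 1 and 2.68, 2.72, 1.62 and 2.18 in set 2, a difference of -1.50 ± 0.14 (adjusted p = 0.00124). For both Uhrf1 and Tk1 the Ecrg4(71-132) array was lowest in each set, and the sets still did not overlap. Pcna, the sliding clamp of the polymerases, which also serves DNA repair, read 6.30, 6.41, 6.32 and 6.51 in set 1 and 5.87, 5.87, 5.85 and 5.93 in set 2. Its difference was smaller, -0.50 ± 0.05 (1.42-fold, adjusted p = 0.00144). Tyms, thymidylate synthase, read -1.34, -1.24, -1.07 and -1.10 in set 1 and -1.66, -1.87, -0.56 and -1.58 in set 2, a difference of -0.23 ± 0.21 (adjusted p = 0.392, 95% interval -0.78 to 0.33). The set 2 Ecrg4(71-132) array was the highest of its 8, and the other 3 set 2 arrays were the lowest. Without either Ecrg4(71-132) array, Tyms differed by -0.47 and was called (adjusted p = 0.0139).

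The 3 tested genes of G1/S control were all called, with a smaller median of -0.53. Ccne1 (cyclin E1), which starts S phase with Cdk2, read 3.04, 3.13, 2.85 and 3.18 in set 1 and 2.71, 2.64, 2.25 and 2.45 in set 2, a difference of -0.53 ± 0.08 (adjusted p = 0.00477). E2f1, an activator of the replication wave, read 2.70, 2.83, 2.59 and 2.72 in set 1 and 2.55, 2.58, 2.09 and 2.30 in set 2, a difference of -0.33 ± 0.08 (adjusted p = 0.0188). E2f1 was the smallest difference called, its set 2 Fc array nearly touched the lowest set 1 array, and it was not called without either Fc array or either Ecrg4(133-148) array (adjusted p = 0.0524 and 0.0758, differences -0.36 and -0.30). E2f8, a repressor that acts late in S phase, read 1.66, 1.66, 1.43 and 1.75 in set 1 and 0.05, 0.22, 0.59 and 0.18 in set 2, a larger difference of -1.36 ± 0.15 (adjusted p = 0.00195). Ccne2 (cyclin E2) read -7.43, -7.08, -6.73 and -6.82 in set 1 and -6.45, -6.05, -6.39 and -6.24 in set 2 and was not well above background in either set, so no fold is given.

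**Figure D3:**
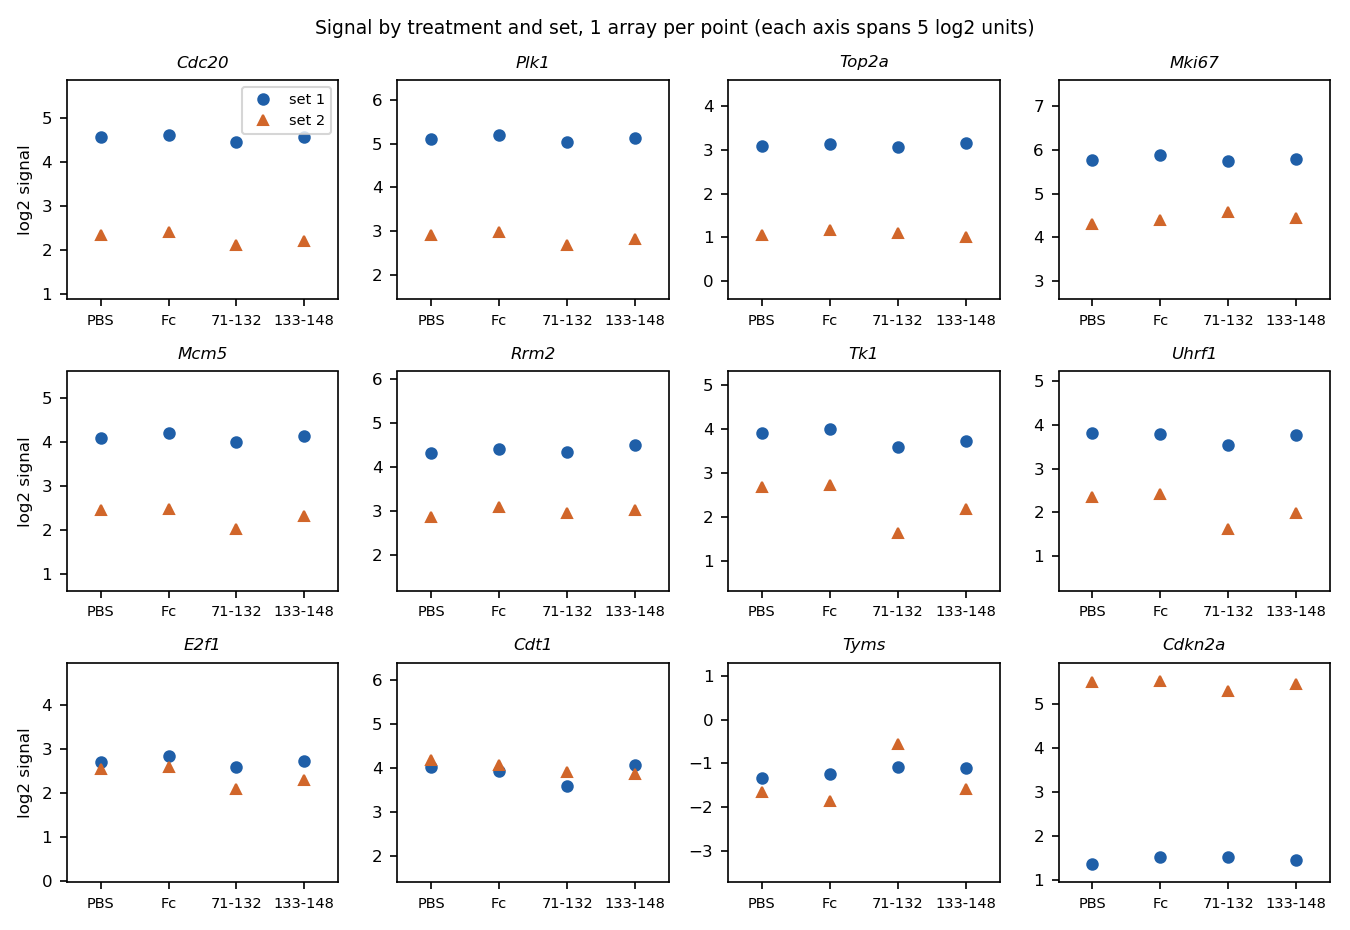
Log2 signal (y axis, 5 units tall in each panel) of 11 members and Cdkn2a by treatment (x axis) in set 1 (blue circles) and set 2 (orange triangles), 1 array per point. Cdc20, Plk1, Top2a, Mki67, Mcm5, Rrm2, Tk1 and Uhrf1 form 2 bands with set 2 below, the bands touch for E2f1, Cdt1 and Tyms, and Cdkn2a has set 2 above. Tk1 and Uhrf1 dip and Tyms peaks at Ecrg4(71-132) in set 2.

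A further 114 cell cycle genes outside the 50, of which 107 were tested, showed the same direction, with 85 lower, 9 higher and a median of -1.24. Of other mitosis genes, 37 of 37 were lower (median -1.69), among them Nek2, a centrosome kinase, at -2.18 ± 0.05 and Hmgb2, a chromatin protein, at -1.88 ± 0.05. Of other replication genes, 27 of 28 were lower (median -1.34), among them Dbf4, the partner of the Cdc7 kinase, at -1.26 ± 0.05. Regulators were split. Of 7 G1 cyclins and CDKs, 4 were lower, among them Cdk4 at -0.65 ± 0.06 and Cdk2 at -0.49 ± 0.07, and 1 was higher, Ccnd2 (cyclin D2), at 1.74 ± 0.05 (limma, adjusted p = 9.27e-05). Ccnd2 read 3.48, 3.56, 3.89 and 3.79 in set 1 and 5.18, 5.36, 5.55 and 5.58 in set 2, with no overlap between the sets. Of 15 tested genes of the RB, E2F and DREAM group, 9 were lower, with E2f7 at -1.62 ± 0.06 and Mybl2 (B-Myb) at -1.92 ± 0.10, and 2 were higher, Rb1 at 0.29 ± 0.04 and Lin52 at 0.22 ± 0.05.

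Among 7 tested CDK inhibitors, 4 were lower and 2 higher in set 2, against 22.8% lower and 36.4% higher over all genes. Cdkn2a, which encodes p16INK4a and p19ARF from overlapping transcripts, read 1.36, 1.51, 1.51 and 1.46 in set 1 and 5.51, 5.52, 5.30 and 5.45 in set 2. Set 2 was higher by 3.99 ± 0.07 on the log2 scale, or 15.9-fold (limma, adjusted p = 6.94e-05), the largest rise of the cell cycle genes listed here, and the sets were far apart. Which of the 2 transcripts its probe reads was not worked out. Cdkn2b (p15INK4b) was higher by 0.50 ± 0.16 (adjusted p = 0.0478). Cdkn3, which encodes a phosphatase, differed by -2.16 ± 0.07 and Cdkn1a (p21) by -0.99 ± 0.09. Cdkn1c (p57) was not well above background in set 2 and was at least 6.95-fold lower there. Of 13 tested checkpoint and p53 genes, 4 were higher and 4 lower, which is not far from the shares over all genes. Among those higher were Btg1, an antiproliferative gene, at 1.66 ± 0.12 and Ccng1 at 0.46 ± 0.04. Among those lower were Cdc25c at -2.15 ± 0.13 and Cdc25a at -0.41 ± 0.05.

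Markers of cell type moved with the set too, in a comparison where 36.4% of all genes were called higher and 22.8% lower. All 10 microglia markers were measured in both sets, and their summed level was 9.27 to 9.39 in set 1 and 9.20 to 9.39 in set 2. The brightest gene in that sum was Csf1r, which differed by -0.01 ± 0.06. The median of the 10 markers did not overlap, at 3.81 to 3.90 in set 1 and 2.76 to 3.09 in set 2. Within the list, 6 were lower and 3 higher in set 2. Those higher were Ptprc, Itgam and Cd68, by 0.80, 0.66 and 0.48. Cx3cr1, the fractalkine receptor, went from 4.58 to 4.71 in set 1 to -3.25 to -0.74 in set 2, and Tmem119 was well above background on 1 of 4 set 2 arrays. Of 8 astrocyte markers, 5 were lower, 2 higher and 1 not tested. Gfap stood at 1.11 to 2.43 in set 1 and at -6.23 to -3.66 in set 2, while the summed level was 4.90 to 5.43 in set 1 and 6.18 to 6.26 in set 2. That sum leans on its brightest gene, Aldoc, which was higher in set 2 by 1.56 ± 0.07. The median of the 7 tested astrocyte markers lay at 0.08 to 1.24 in set 1 and at -4.58 to -3.35 in set 2. Of 6 fibroblast markers, all 3 tested were lower, Col3a1 and Lum were not well above background in set 2, and the summed level was 4.56 to 5.68 in set 1 and -1.28 to -0.12 in set 2. Of 7 oligodendrocyte lineage markers, 3 were lower and 2 higher, with Olig1 and Olig2 not well above background in set 2. Of 5 neuron markers only Snap25 was tested, and it was higher in set 2, at 1.60 to 1.70 in set 1 and 2.02 to 2.97 in set 2. Tubb3, Rbfox3, Syt1 and Map2 were not well above background there. Tubb3 and Map2 were well above background on all 4 set 1 arrays and were at least 3.71-fold and 1.21-fold lower in set 2. The neuron sum, led by Snap25, was 1.75 to 1.89 in set 1 and 2.05 to 3.00 in set 2. Of 4 endothelial markers only Pecam1 was tested, and it was not called; Cdh5 and Tek were not well above background in set 2, and the sum was -2.06 to -1.66 in set 1 and -2.49 to -1.25 in set 2. The part of these cell type markers in the cell cycle difference was not tested.

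Of the receptors for growth factors of microglia, Csf2ra and Csf2rb were higher in set 2 and Csf1r was not called. Csf1r, the M-CSF receptor, differed by -0.01 ± 0.06 (limma, adjusted p = 0.897), with the sets overlapping. Csf2ra, a subunit of the GM-CSF receptor, read 6.10, 6.23, 6.23 and 6.12 in set 1 and 8.03, 8.07, 8.01 and 8.03 in set 2. It was higher in set 2 by 1.86 ± 0.05 (limma, adjusted p = 9e-05), without overlap. Csf2rb, the other subunit, was higher by 1.28 ± 0.06 (limma, adjusted p = 0.000242). The ligand Csf1 was lower in set 2 by 2.04 on the log2 scale, at 3.39 to 3.89 in set 1 and 1.31 to 2.09 in set 2. The ligand Csf2 was not called (0.61 ± 0.95), and Il34 was not well above background in set 2.

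**Figure D4:**
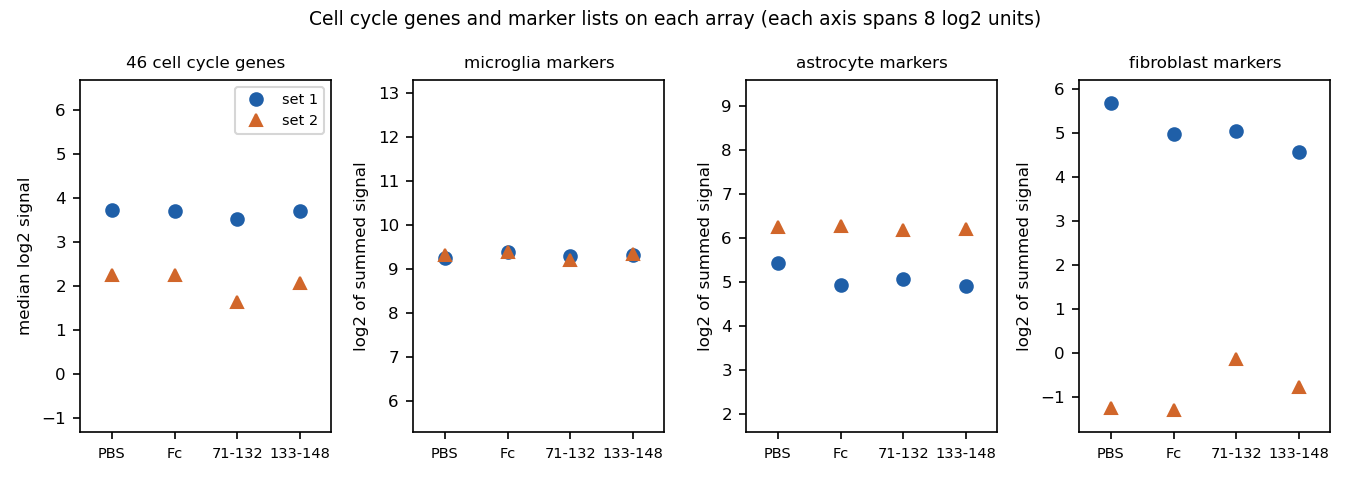
Median log2 signal of the 46 tested cell cycle genes, and log2 of the summed signal of the microglia, astrocyte and fibroblast marker lists, by treatment (x axis) in set 1 (blue circles) and set 2 (orange triangles), 1 array per point, each y axis 8 units tall. The cell cycle median lies at 3.52 to 3.72 in set 1 and 1.64 to 2.25 in set 2. The fibroblast sum is lower in set 2. The microglia sum, whose brightest gene is Csf1r, overlaps between the sets, while the median of the 10 microglia markers (not drawn) is lower in set 2. The astrocyte sum is higher in set 2, as is its brightest gene, Aldoc, while 5 of the 7 tested astrocyte markers are lower.

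The treatments were compared next, to ask whether 3 h with Ecrg4 residues 71 to 132 or 133 to 148 moved cell cycle genes against Fc. No member was called in any of 6 comparisons between treatments by limma (0 of 46 in each). This is a count of 0 over all 19120 genes too (0% called). At an unadjusted p under 0.05 no member passed either, against 3.37% of all genes for Ecrg4(71-132) minus Fc, 0.46% for Ecrg4(133-148) minus Fc, 0.737% between the Ecrg4 groups, 0.267% for Fc minus PBS, and 4.88% and 0.973% for Ecrg4(71-132) and Ecrg4(133-148) minus PBS. The spread in this fit includes the difference between sets, which is large for most of these genes. A member whose sets differ little therefore reaches a small unadjusted p more easily. Tyms, Bub1b, Cdt1 and E2f1, named below by that p, had set differences of -0.23, -0.30, 0.10 and -0.33. These were the smallest in size among the tested members, so the naming follows the set difference as well as the treatment. With the set as a block, 0 genes were again called after adjustment. These comparisons share arrays: both Ecrg4 groups are set against the same 2 Fc arrays or the same 2 PBS arrays.

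For Ecrg4(71-132) minus Fc the members' median difference was -0.24, with -0.15 in set 1 and -0.32 in set 2. In 38 of 46 members the Ecrg4(71-132) array was lower in both sets, and in 2 it was higher in both. Of all genes, 36.4% were lower in both sets and 28.5% higher. Replication and G1/S genes had a median of -0.32 (16 of 18 lower in both sets) and mitotic genes of -0.22 (22 of 28). With the set as a block, 21 members had an unadjusted p under 0.05, all lower, against 11.1% of all genes, and their smallest adjusted p was 0.207. None of these differences passed the adjusted threshold, so they are values and not calls.

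Values within the sets were uneven. Tk1 read 3.99 in Fc and 3.58 in Ecrg4(71-132) in set 1, and 2.72 and 1.62 in set 2, the widest gap below Fc among the members in each set. Tyms went the other way, higher by 0.17 and 1.31. Its mean difference was 0.74 ± 0.32 (limma, adjusted p = 0.999992), with a 95% interval of -0.04 to 1.52 with the set as a block (adjusted p = 0.281). Bub1b was lower by 0.32 and 0.76, a mean of -0.54 ± 0.25 (the same adjusted p), with an interval of -0.91 to -0.17 with the block (adjusted p = 0.219). In the limma fit without the set, Tyms and Bub1b had the smallest unadjusted p among the members in their directions, 0.0672 and 0.0774. That ranking favours members whose sets differ little. Without the set 1 Ecrg4(71-132) array, blocking on set called both, Tyms at 1.23 and Bub1b at -0.77 (limma, adjusted p = 0.0487 for both), from the set 2 Ecrg4(71-132) array alone. That fit called 2.52% of all genes, so 2 of 46 members is not far from the share of all genes.

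The larger values sat in set 2. Of the 46 members, the Ecrg4(71-132) array was the lowest of the 4 treatments for 32 in set 1 and 33 in set 2, against 31.2% and 40.4% of all genes. The median range over the 4 treatments was 0.19 in set 1 and 0.41 in set 2 for the members, and 0.23 and 0.31 for all genes. With 1 array per treatment in each set, no test within a set is possible.

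**Figure D5:**
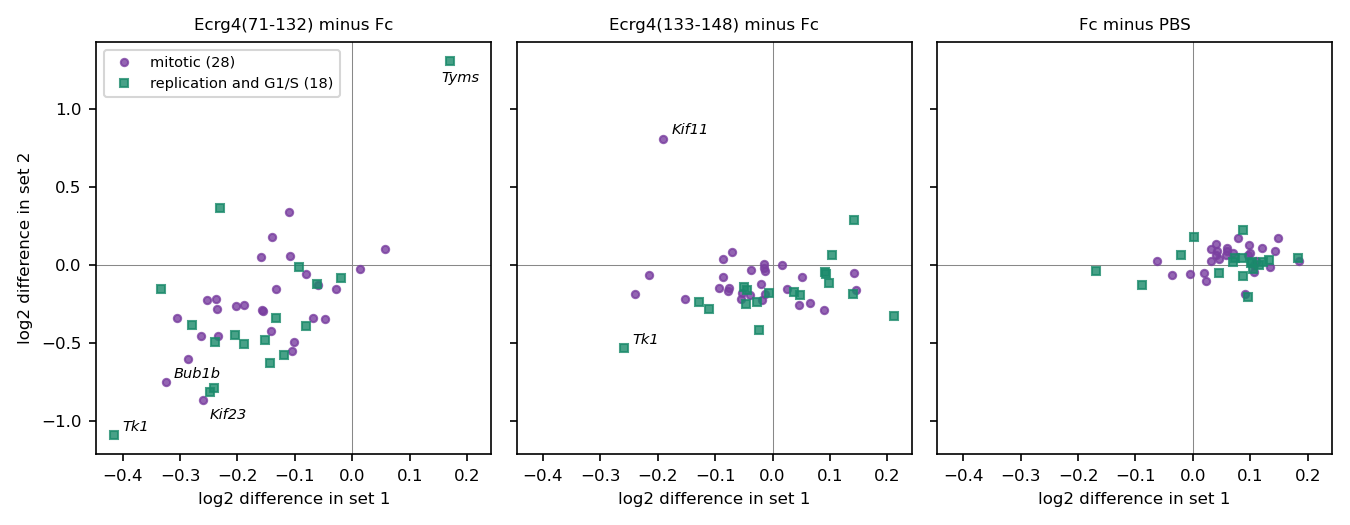
Log2 difference in set 1 (x axis) and set 2 (y axis) of 28 mitotic genes (purple circles) and 18 replication and G1/S genes (green squares) for 3 comparisons, 1 array against 1 array in each set, on shared axes. For Ecrg4(71-132) minus Fc most points lie in the lower left quadrant (38 of 46), with Tyms at upper right; for Fc minus PBS the points gather near 0. No point passed limma's adjusted threshold, and the panels share the Fc arrays.

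For Ecrg4(133-148) minus Fc the members' median was -0.09, with -0.02 in set 1 and -0.16 in set 2. The Ecrg4(133-148) array was lower in both sets for 25 of 46 members and higher in both for 2, against 30.6% and 28.5% of all genes. With the set as a block 1 member had an unadjusted p under 0.05 and was lower, against 3.14% of all genes. Tyms had the smallest unadjusted p among those above Fc, with a difference of 0.21 ± 0.32, and E2f1 among those below, with -0.20 ± 0.25 (limma, adjusted p = 0.999999 for both). Both lie within their error. Kif11 stood out in set 2 alone, 0.81 above Fc there and 0.19 below it in set 1.

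Set against each other, the Ecrg4 groups differed by a median of 0.13 (Ecrg4(133-148) minus Ecrg4(71-132)), with 33 of 46 members higher in both sets and 2 lower. Of all genes, 33.5% were higher in both sets and 23.7% lower. Bub1b was higher with Ecrg4(133-148) by 0.46 ± 0.25 (limma, adjusted p = 0.99995), with an interval of 0.085 to 0.83 with the set as a block (adjusted p = 0.714). Tyms was at -0.52 ± 0.32 (the same adjusted p), with a blocked interval of -1.30 to 0.26. No difference between the 2 Ecrg4 proteins passed, and intervals of this width do not show that they act alike.

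Fc itself was close to PBS for these genes. The median of Fc minus PBS was 0.06, with 0.08 in set 1 and 0.03 in set 2, and single members ranged from -0.11 to 0.16. In 29 of 46 members Fc was higher in both sets, against 39.6% of all genes, and in 4 it was lower, against 16.7%. E2f1 had the smallest unadjusted p among members above PBS, 0.08 ± 0.25, and Cdt1 among those below, -0.11 ± 0.17 (limma, adjusted p = 0.999979 for both). Neither exceeds its error.

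Against PBS in place of Fc, the median was -0.18 for Ecrg4(71-132), with 28 of 46 members lower in both sets and 4 higher (31.5% and 34.3% of all genes). It was -0.04 for Ecrg4(133-148), with 10 lower and 10 higher (23.8% and 36.3%). When arrays were scaled to their median the Ecrg4(71-132) value went to -0.023, and the median of all genes went from 0.01 to 0.16. Relative to all genes the members stayed at -0.19, a value that this scaling cannot change. The Ecrg4(133-148) value turned from -0.04 to 0.08 under the same scaling. Tyms was above PBS by 0.68 ± 0.32 and Bub1b at -0.57 ± 0.25 with Ecrg4(71-132) (limma, adjusted p = 0.999962 for both). Without the set 1 Ecrg4(71-132) array, blocking on set called both, at 1.17 and -0.80 (adjusted p = 0.0436 and 0.0416), along with 5.64% of all genes. With Ecrg4(133-148), Tyms was at 0.16 ± 0.32 and Cdt1 at -0.14 ± 0.17 (adjusted p = 0.999959 for both).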

How the data were processed

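RNA of 8 samples was read on 8 arrays with 1 dye. Per the submitters' processing notes the scanner software was Agilent Feature Extraction 11.0.1.1. Its deposited files give a linear intensity per spot with the background taken off. The authors' deposited value table holds log2 values, which follow the scanner log2 minus 1 constant per array, with column medians from -4.47 to -4.20. The origin of that constant is not given.

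From these, log2 intensity minus each array's 75th percentile over non-control spots was computed and spots of a probe were averaged. Outlying spots were left out, which removed 104 probes. Of 55681 probes, 28026 were named by RefSeq accession through a gene table of GRCm38.p6 and 27655 kept the file's name. A probe was kept if both arrays of any treatment had it well above background (25250 probes), and the brightest stood for its gene (19120 genes). All 8 arrays entered the fit in limma 3.58.1 (R 4.3.3), with Benjamini-Hochberg adjustment over all genes and a threshold of 0.05. The set comparison had treatment as a block (3 residual degrees of freedom), and treatments were compared by 1 mean per group without the set (4). The set numbers pair the arrays: set differences correlated at 0.78 to 0.86 across genes between treatments, and a blocked fit, with set as a factor, was run beside it. On simulated arrays the set comparison, over 19120 genes, recovered 24, 37, 45 and 49 of 50 genes changed by 0.5, 1, 2 and 3 on the log2 scale, with 7 false calls. Only those genes were changed, with independent noise, whereas 59.3% of genes were called in the data. The adjusted p depends on that share, so the recovered counts do not carry over to the data. The number of arrays limits the precision.

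The members, lists and tests were chosen with earlier results of these data known. Array values are given for a set list of 22 members and for the 3 members per direction of each comparison whose unadjusted p was smallest. For treatments that p came from the fit without the set. Differences between treatments are given for the first of these in each direction; Tk1 and Kif11, and Ttk and Cenpf, were named after their values were seen. Of other cell cycle genes, the 2 with the smallest p in each direction of each list are named, and Cdkn1c was added as the one inhibitor with only a bound. A named replication gene and the oligodendrocyte sum are not reported here. Alternatives covered scaling, background correction (normexp, offset 50), filters, the probe rule, the deposited log2 table, moderation, the threshold, the block, and each array left out in turn.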

Additional observations from a re-analysis of the deposited data

Results flagged for a closer look

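In 92 groups of 4 arrays (46 members in each set), 2 single arrays lay far from the other 3 by Dixon's ratio, where chance flags about 1 in 20 groups. Bub1b read 0.61 on the Ecrg4(71-132) array of set 2, against 1.29 for the nearest of the others. Uhrf1 read 3.54 on the Ecrg4(71-132) array of set 1, against 3.76 for the nearest. A further 4 medians had opposite signs in the sets, with 1 array against 1 array in each, and these differences were not tested. For Ecrg4(133-148) minus Fc the median of replication and G1/S genes was 0.016 in set 1 and -0.19 in set 2. For Ecrg4(133-148) minus PBS the medians were 0.052 and -0.12 for all members, 0.046 and -0.073 for mitotic genes, and 0.065 and -0.21 for replication and G1/S genes.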

How the results depend on the processing

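The lower level of the members in set 2 kept its direction under every alternative run, with 42 to 47 members called and 1 exception to the direction: without a filter on dim probes 47 of 50 were called, 46 lower and 1 higher. Of the members that this setting adds, only Ccne2 had a higher mean in set 2, by 0.73. It was well above background on 0 arrays, so its value is not read as a rise. Scaled to array medians the members' median was -1.74. Leaving out 1 array of a treatment is the same as leaving out both there, since treatment is a block, and gave 42 to 45 calls. Of the 46 members, 42 kept their side of the threshold in all alternatives. Cdt1 turned to -0.017 under median scaling.

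Treatment medians were small and moved with the scaling. Under median scaling they were 0.099 for Ecrg4(133-148) minus Ecrg4(71-132), 0.14 for Fc minus PBS, -0.023 for Ecrg4(71-132) minus PBS, -0.17 for Ecrg4(71-132) minus Fc, -0.050 for Ecrg4(133-148) minus Fc and, with the sign turned, 0.082 for Ecrg4(133-148) minus PBS, and quantile normalization gave 0.016 for Fc minus PBS. The replicate block called 0 members in all 6 comparisons, as did the fit without it. Leaving out 1 array without the block compares unequal sets, so those medians ran from -1.11 to 0.60 (Ecrg4(71-132) minus Fc), -0.90 to 0.76 (Ecrg4(133-148) minus Fc), -0.70 to 0.98 (Ecrg4(133-148) minus Ecrg4(71-132)), -0.74 to 0.84 (Fc minus PBS), -1.04 to 0.68 (Ecrg4(71-132) minus PBS) and -0.84 to 0.80 (Ecrg4(133-148) minus PBS). With the replicate block and 1 array left out, they ran from 0.068 to 0.19 (0.18 without the set 2 Ecrg4(133-148) array) for Ecrg4(133-148) minus Ecrg4(71-132) and from -0.0082 to 0.11 (0.10 without the set 1 Fc array) for Fc minus PBS. They ran from -0.30 to -0.16 for Ecrg4(71-132) minus Fc, -0.24 to -0.091 for Ecrg4(71-132) minus PBS, -0.14 to -0.037 for Ecrg4(133-148) minus Fc and -0.11 to 0.029 for Ecrg4(133-148) minus PBS. Without the set 1 Ecrg4(71-132) array, the replicate block called 2 members, Tyms higher and Bub1b lower, against Fc (1.23 and -0.77, adjusted p = 0.0487 for both) and against PBS (1.17 and -0.80, adjusted p = 0.0436 and 0.0416), where 2.52% and 5.64% of all genes were called. The lone set 2 array is then assumed to vary like the other groups. Some uncalled values of single genes changed sign when 1 array was left out. For Ecrg4(133-148) minus Fc, E2f1 ran from -0.41 to 0.014 and Tyms from -0.097 to 0.53 (-0.050 with the replicate block). For Fc minus PBS, E2f1 ran from -0.043 to 0.21 (-0.039 with the block). For Ecrg4(133-148) minus PBS, Tyms ran from -0.079 to 0.40 (-0.0074 with the block), and Cdt1 reached 0.065 with the block.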

Other observations

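In the list of checkpoint and p53 genes, 5 of the 13 tested were higher with Ecrg4(71-132) than with Fc in both sets and 3 were lower, against 28.5% and 36.4% of all genes. Of 7 CDK inhibitors, 2 were higher and 3 lower in both sets, with a median difference of -0.11. No gene was called against Fc. The genes that follow were chosen after their values were seen and stand for no group. Btg1 was above Fc by 0.46 in set 1 and 0.94 in set 2, Btg2, its relative, by 0.33 and 0.81, and Cdkn2b (p15INK4b) by 0.56 and 1.25. Gadd45a, a stress gene, was above Fc by 0.72 and 1.56, and Gadd45b, its relative, by 0.69 and 3.61. Cdkn2a read 1.51 with both proteins in set 1, and in set 2 it read 5.30 with Ecrg4(71-132), the lowest of that set, against 5.52 with Fc. E2f2, an activator of the replication wave, was lower than Fc in both sets, at 2.53 against 3.06 in set 1 and 1.09 against 2.60 in set 2. Over the 107 other cell cycle genes tested, the median of Ecrg4(71-132) minus Fc was -0.18, with 71 lower in both sets and 19 higher.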
